A study of Homo sapiens with 26 samples.

Results

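The RNA response to JQ1 was measured in DKO-C1, a subline of the human colon carcinoma line HCT116 in which CRISPR editing had targeted both CDK8 and CDK19. The comparison rests on 5 of the 26 libraries in the series, 2 from DKO-C1 given JQ1 (DKO-C1+JQ1) and 3 from untreated DKO-C1, chosen by their column names, and on the 58039 gene rows of the count table. DKO-C1 is 1 cell line, and its untreated libraries carry the same knockouts as the treated ones. Control HCT116 cells given JQ1 (control+JQ1, n = 3) and untreated control cells (n = 3) provided the same contrast without the knockouts. Another double knockout subline, DKO-C2 (n = 3), was sequenced without JQ1. JQ1 is named in the sample titles alone, and its dose and exposure time were not given in the labels. No vehicle is named, so untreated here means without JQ1 in the title. Whether replicates came from separate cultures is not stated either. P-values rest on the spread within the 9 groups of all 26 libraries, which may be technical. One of the DKO-C1+JQ1 columns carries a replicate number that no title has. It was matched to its group and is called replicate a.

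JQ1 is a thienotriazolodiazepine that occupies the acetyl-lysine pockets of the BET proteins, BRD2 and BRD3 among them, and so displaces them from acetylated histones. BET proteins help to recruit P-TEFb, the kinase CDK9 with a cyclin T, which phosphorylates RNA polymerase II and releases it from pausing near promoters. CDK8 and its paralog CDK19 act with cyclin C in the kinase module of Mediator, the complex that bridges enhancer-bound factors and the polymerase. In many cell lines, BET inhibitors lower MYC and lineage genes that depend on large enhancers, while HEXIM1, an inhibitor of P-TEFb, and histone genes rise.

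Histone genes were the list with the largest median rise in DKO-C1, so the sequences upstream of 4 of them are shown. They come from RefSeq on GRCh38.p14, run 5′ to 3′ on the strand of the gene, and end at the base before the annotated start. Capitals mark matches to 3 motifs: the octamer ATTTGCAT and CCAAT, each searched on both strands (ATGCAAAT and ATTGG on the other), and TATAAA on the sense strand. HIST1H2AC and HIST1H2BC are read in opposite directions from the 245 bases between them, so their window is 1 and the same. HIST2H2BE likewise shares its 235 bases with HIST2H2AC.
HIST1H2AC (chr6:26123927-26124171, plus strand): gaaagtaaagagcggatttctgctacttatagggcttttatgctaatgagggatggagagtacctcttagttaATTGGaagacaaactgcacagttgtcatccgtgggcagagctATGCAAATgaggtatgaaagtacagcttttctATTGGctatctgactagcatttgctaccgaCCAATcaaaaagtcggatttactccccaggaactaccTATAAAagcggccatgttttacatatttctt
HIST2H2BE (chr1:149886683-149886917, minus strand): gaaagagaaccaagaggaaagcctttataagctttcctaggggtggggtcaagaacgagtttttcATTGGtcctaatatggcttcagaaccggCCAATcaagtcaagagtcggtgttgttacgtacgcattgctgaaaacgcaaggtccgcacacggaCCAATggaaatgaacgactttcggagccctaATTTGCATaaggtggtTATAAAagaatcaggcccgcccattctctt
HIST1H2BD (chr6:26157871-26158120, plus strand): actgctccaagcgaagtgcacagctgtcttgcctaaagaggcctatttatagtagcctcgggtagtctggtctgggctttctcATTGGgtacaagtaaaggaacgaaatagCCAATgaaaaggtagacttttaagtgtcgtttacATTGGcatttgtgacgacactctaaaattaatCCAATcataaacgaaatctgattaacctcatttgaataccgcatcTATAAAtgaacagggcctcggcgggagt
HIST1H1C (chr6:26056471-26056720, minus strand): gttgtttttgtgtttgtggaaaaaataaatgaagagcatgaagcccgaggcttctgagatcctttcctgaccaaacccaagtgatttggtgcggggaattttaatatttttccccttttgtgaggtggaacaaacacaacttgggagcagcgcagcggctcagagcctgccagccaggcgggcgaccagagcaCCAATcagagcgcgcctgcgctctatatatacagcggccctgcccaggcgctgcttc
Of the 14 histone genes on the list that had enough counts for a test, 13 could be matched to an upstream window of 250 bases, which was searched in full and shortened only for printing where a divergent gene starts within it. These lie in 10 distinct windows because of shared start regions. The octamer was present upstream of 8 of the 13, CCAAT upstream of 12 and TATAAA upstream of 8. A shared window counts once for each of its genes. On the list 21 genes had a window, and among those not tested the octamer was in 1, CCAAT in 6 and TATAAA in 6. Among 27305 RefSeq promoters of the same length, 1.66% held the octamer, 33% held CCAAT and 7.17% held TATAAA. These matches describe the letters in the windows and were not read as binding sites.

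The 5 libraries held 18329406 to 18767377 gene counts, within the range of the series (17700864 to 19093094). Mitochondrial genes took 5.41% and 6.13% of gene counts in DKO-C1+JQ1, against 5.35%, 5.72% and 5.21% in DKO-C1. The treated libraries had 23203 and 23299 genes with a count, and the untreated ones 24284, 24196 and 23821. ERCC spike-in counts came to 2.53% and 3.12% of gene counts with JQ1, against 2.46%, 2.34% and 2.38% without. Levels are given as CPM, counts per 1000000 of the TMM-scaled library size, which sets the typical gene to no change. With library factors taken from the spike-in instead (called ERCC factors here), the median gene had a log2 fold change of -0.27, or -0.44 without DKO-C1+JQ1 replicate 1 and -0.13 without replicate a. A rise or fall in the text is therefore relative to the median gene, and the ERCC result stands beside it where the call or the direction is lost.

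JQ1 changed about as many genes upward as downward in DKO-C1, but the large changes were mostly falls. Of 17198 genes with enough counts for a test, 8642 were called (50.3%), of which 4279 rose (24.9%) and 4363 fell (25.4%), at an adjusted p under 0.05 in edgeR's quasi-likelihood test. With ERCC factors 923 rose (5.37%) and 4941 fell (28.7%), so the balance of rises and falls depends on the scaling. Better expressed genes were called more often, with 35.3% rising and 28.7% falling at 20 to 100 CPM and 32.6% and 30.1% above 100 CPM. Of protein-coding genes 29.8% rose and 29.3% fell. Counts within the gene lists below are to be set beside these shares. A change of at least 2-fold was called upward in 533 genes (3.1%) and downward in 1281 (7.45%). In 5724 genes (33.3%) both treated libraries lay above all 3 untreated ones, and in 5621 (32.7%) both lay below.

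**Figure D1:**
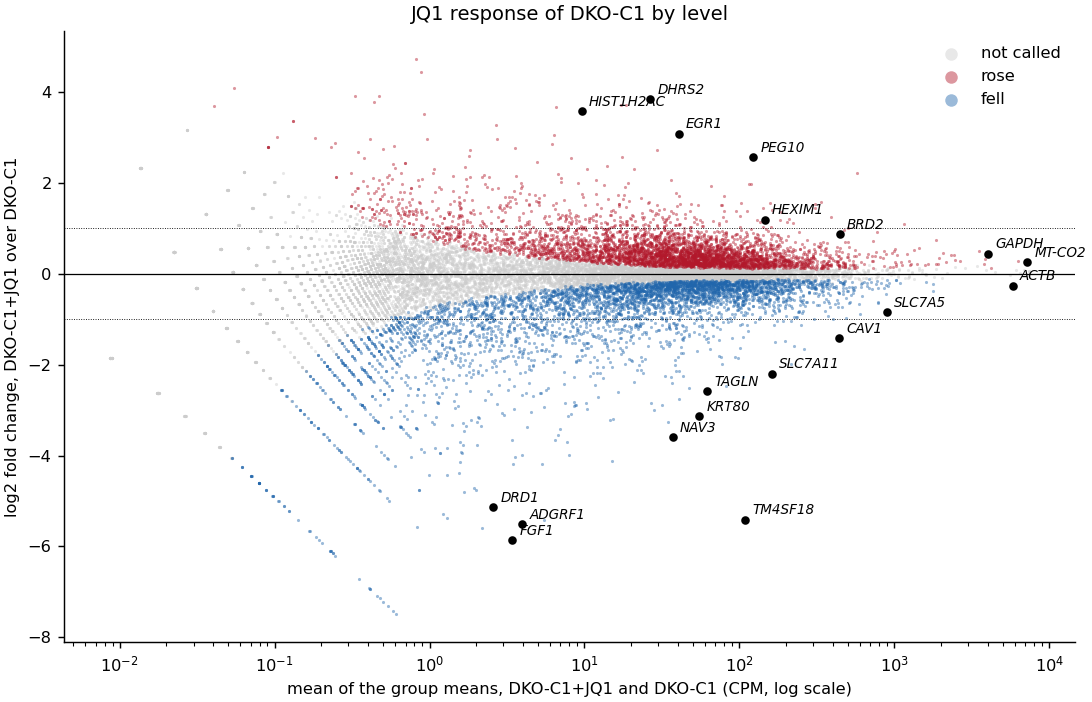
Log2 fold change of each tested gene, DKO-C1+JQ1 (n = 2) over DKO-C1 (n = 3), against the mean of the group means in CPM on a log scale. Red points rose, blue points fell, grey points were not called, and dotted lines mark 2-fold. Strong falls reach -5.41 in TM4SF18 and -5.86 in FGF1, while the rises of DHRS2 and HIST1H2AC stay under 4.

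The targeted kinases were still transcribed in every DKO-C1 library. CDK8 (ENSG00000132964, chromosome 13, 26254104 to 26405238, plus strand of hg38) was at 45.5 and 43.2 CPM with JQ1, against 39.9, 35.4 and 38.1 CPM without. The treated libraries stood above the untreated ones, and the rise was called (log2 fold change 0.23 ± 0.0630, SE, adjusted p = 0.00245 by edgeR), but with ERCC factors it turned to -0.03 (adjusted p = 0.904). Control cells had 50.1, 50.4 and 52.2 CPM without JQ1. The other kinase gene, CDK19 (ENSG00000155111, on chromosome 6, 110609978 to 110815958, minus strand), stood at 38.6 and 36.7 CPM with JQ1, against 34.8, 33.1 and 31.8 CPM without. Its groups did not overlap either, yet the difference of 0.18 ± 0.0782 missed the threshold (adjusted p = 0.0539 by edgeR). Where the genes were edited is not stated in the labels, and RNA levels therefore do not check the knockouts.

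Of the 7 genes of the Mediator kinase module, 3 rose, 2 fell and 2 were not called, while with ERCC factors none rose and 2 fell. CCNC, cyclin C, was at 104 and 98.2 CPM with JQ1, against 83.8, 79.5 and 78.3 CPM without, with no overlap (0.33 ± 0.0618, adjusted p = 2.79e-05 by edgeR; 0.07, adjusted p = 0.807, with ERCC factors). MED13L, a paralog of the subunit that joins the module to Mediator, was lower in DKO-C1+JQ1 (164 CPM with JQ1 and 212 CPM without; -0.37 ± 0.0646, adjusted p = 8.79e-06 by edgeR). MED12, which activates the kinase, fell as well (-0.23, adjusted p = 0.00769 by edgeR), but not without DKO-C1+JQ1 replicate 1 (adjusted p = 0.0744) or DKO-C1 replicate 2 (adjusted p = 0.0796). The rise of MED13 (0.18, adjusted p = 0.0247 by edgeR) was lost without either treated library or without DKO-C1 replicate 2 or 3, with adjusted p-values of 0.0544 to 0.096.

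Among genes of the BET proteins and of P-TEFb control, rises were led by HEXIM1 and BRD2. Of 19 tested, 8 rose, 3 fell and 8 were not called, beside 24.9% and 25.4% of all genes, while with ERCC factors 2 rose (HEXIM1 and BRD2) and 3 fell. HEXIM1 (ENSG00000186834, chromosome 17, 45148502 to 45152101, plus strand), the inhibitor that holds P-TEFb in the 7SK RNA particle, was at 198 and 207 CPM with JQ1, against 85.6, 90.2 and 89.8 CPM without. Every treated library was far above every untreated one (1.19 ± 0.0524, adjusted p = 1.9e-20 by edgeR; 0.92 with ERCC factors). BRD2 (ENSG00000204256, chromosome 6, 32968660 to 32981505, plus strand) was at 566 and 583 CPM with JQ1, against 314, 313 and 314 CPM without, again without overlap (0.87 ± 0.0468, adjusted p = 6.51e-18 by edgeR). BRD3, another direct target of JQ1, showed 53.7 CPM with JQ1 and 51.1 CPM without (adjusted p = 0.368 by edgeR).

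The kinase of P-TEFb and its elongation partners were among the other rises. CDK9 (0.36), SUPT5H (0.41), the larger subunit of the DSIF elongation factor, and AFF1 (0.55), AFF4 (0.39) and ELL2 (0.65) of the super elongation complex rose, and none of these 5 kept the call with ERCC factors. ELL2 had 70.3 and 70.4 CPM with JQ1, against 43.7, 47.0 and 44.2 CPM without, with no overlap. Cyclin T was not called, with a log2 fold change of 0.09 for CCNT1 and -0.10 for CCNT2. The falls were those of NELFCD (94.7 and 89.7 CPM with JQ1, against 125, 127 and 124 CPM without; -0.44 ± 0.0556, adjusted p = 1.74e-08 by edgeR), a subunit of the pausing factor NELF, of NELFA (-0.19), and of MEPCE (-0.20), which caps 7SK RNA. NELFA lost its call without any of 4 of the 5 libraries (DKO-C1 replicate 2 is the exception, adjusted p-values of 0.0687 to 0.161), and MEPCE without DKO-C1+JQ1 replicate 1 (adjusted p = 0.167). Exons on the opposite strand overlap HEXIM1, MEPCE and ELL2, and the strand setting of the counts is not given, so reads of those partners cannot be told apart from theirs. The same holds for BRD2, PEG10, CDKN1A, KIF20A, PLK1, SLC7A11, TM4SF18, MAP1LC3B, DNAJB1, IDI1, CTGF, VIM, KRT7, KRT8, KRT18 and others named below.

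MYC, the transcription factor whose fall is the best known effect of BET inhibitors, fell slightly in DKO-C1. It was at 118 and 129 CPM with JQ1, against 150.4, 151 and 149 CPM without. The treated libraries were below all untreated ones (-0.28 ± 0.0729, adjusted p = 0.00131 by edgeR), but without DKO-C1+JQ1 replicate 1 the fall was -0.21 and missed the threshold (adjusted p = 0.0613). In control cells MYC was at 281, 256 and 287 CPM with JQ1, against 423, 561 and 514 CPM without (-0.86 ± 0.0619, adjusted p = 1.68e-14 by edgeR). Untreated DKO-C1 stood lower than control cells given JQ1. The fall was smaller in DKO-C1, with a difference of 0.58 ± 0.0949 on the log2 scale (adjusted p = 3.63e-05 by edgeR; adjusted p = 0.157 with ERCC factors).

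Of 12 tested genes of the MYC and MAX network, 4 rose and 3 fell in DKO-C1, beside 24.9% and 25.4% of all genes. With ERCC factors 2 rose (MXD1 and MXD4) and 3 fell, beside 5.37% and 28.7%. MXD1, which pairs with MAX and represses MYC targets, was at 15.2 and 15.6 CPM with JQ1, against 8.36, 7.09 and 7.63 CPM without (1.002 ± 0.101, adjusted p = 1.21e-10 by edgeR). MXD4, another such repressor, was at 28.0 and 27.5 CPM with JQ1, against 11.4, 11.8 and 12.9 CPM without (1.203 ± 0.100, adjusted p = 1.15e-12 by edgeR). Neither gene overlapped between the groups. MLXIPL, a glucose-responsive factor of the network, rose (0.51, adjusted p = 5.03e-05 by edgeR; adjusted p = 0.309 with ERCC factors), and MLX (-0.27) and MXI1 (-0.29) fell. MXI1 lost the call without DKO-C1+JQ1 replicate a (adjusted p = 0.069). The rise of MYCL (0.44, adjusted p = 0.0458 by edgeR) was lost without either treated library or without DKO-C1 replicate 1 or 2, with adjusted p-values of 0.0621 to 0.239, and MAX (0.11) was not called.

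Replication-dependent histone genes rose almost throughout. These genes form clusters and are mostly transcribed in S phase into RNA without a poly(A) tail, while some members can also yield polyadenylated RNA. How the libraries were made is not given in the sources used here. Of 25 genes listed, 14 were tested, 13 rose and none fell, with a median log2 fold change of 2.13 (all genes -0.0048). The direction held with ERCC factors (12 rose, none fell). Of the other 11 genes, 4 had no count in any of the 5 libraries, and a gene with counts after JQ1 alone could pass the filter through its rise.

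**Figure D2:**
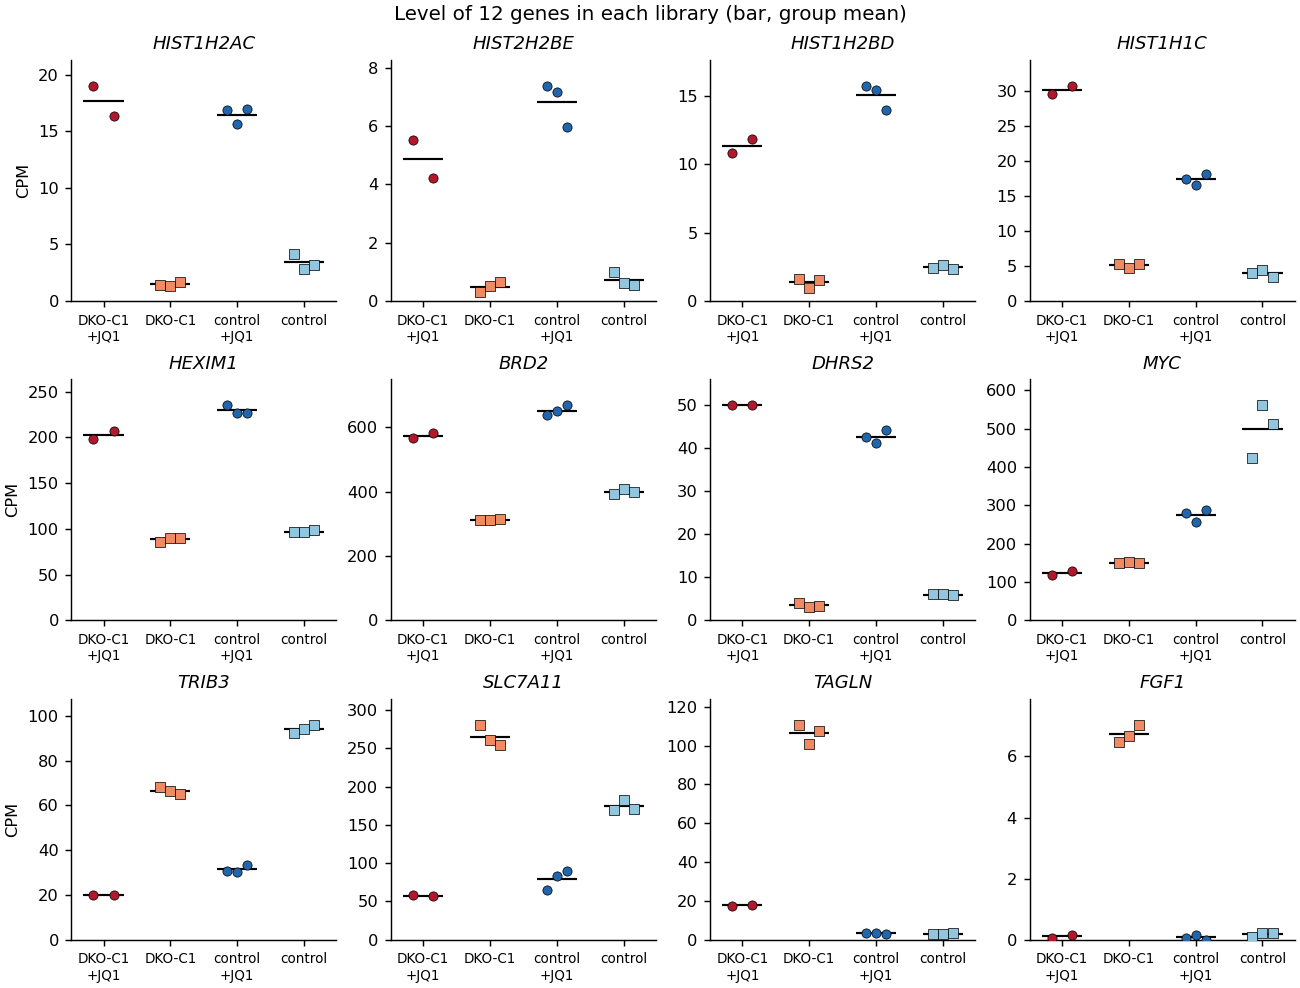
CPM of 12 genes in each library, from left to right DKO-C1+JQ1 (n = 2), DKO-C1 (n = 3), control+JQ1 (n = 3) and control (n = 3), on axes that start at 0; points are libraries and bars are group means. The histone genes, HEXIM1, BRD2 and DHRS2 are higher after JQ1 in both backgrounds, while TAGLN and FGF1 are high in untreated DKO-C1 alone among the 4 groups.

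The largest rise among the histone genes was that of HIST1H2AC (ENSG00000180573, chromosome 6, 26124145 to 26139116, plus strand), whose upstream window is printed above. It was at 19.0 and 16.4 CPM with JQ1, against 1.38, 1.30 and 1.72 CPM without (3.59 ± 0.151, adjusted p = 6.22e-21 by edgeR). HIST2H2BE had 5.53 and 4.23 CPM with JQ1, against 0.318, 0.521 and 0.645 CPM without (3.29 ± 0.261, adjusted p = 3.49e-13 by edgeR), and HIST1H2BD had 10.8 and 11.9 CPM with JQ1, against 1.59, 0.939 and 1.56 CPM without (3.06 ± 0.167, adjusted p = 1.07e-17 by edgeR). None of the 3 overlapped between the groups, and in untreated DKO-C1 they rested on 6 to 32 counts per library. HIST1H1C, a linker histone gene, had 29.5 and 30.7 CPM with JQ1, against 5.24, 4.75 and 5.27 CPM without and a clear gap between the groups (2.56 ± 0.103, adjusted p = 1.62e-21 by edgeR). HIST1H2BC, on the other side of the window of HIST1H2AC, rose as well (1.92 and 1.63 CPM with JQ1, against 0.318, 0.209 and 0.537 CPM without; 2.30 ± 0.415, adjusted p = 1.36e-05 by edgeR). HIST2H2AC, the partner of HIST2H2BE, shares 30.2% of its words with other transcripts and was at 1.10 and 0.922 CPM with JQ1, against 0.635, 0.574 and 0.430 CPM without. Its rise (0.87 ± 0.347, adjusted p = 0.0344 by edgeR) is the call that was lost with ERCC factors (adjusted p = 0.274). HIST1H4C was the tested member that was not called, at 3.40 and 2.44 CPM with JQ1, against 2.96, 3.08 and 2.20 CPM without (adjusted p = 0.807 by edgeR). HIST1H2BK rose by 1.99 ± 0.139, but 71.4% of its 50-base words also occur in transcripts of other genes, so its reads may be split or shared. HIST2H2BE, HIST1H2BC, HIST2H2AC and HIST1H4C lie outside the rule for named genes and were chosen after their values were seen.

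The largest rises covered genes of varied function. DHRS2 (ENSG00000100867, chromosome 14, 23630115 to 23645639, plus strand), a mitochondrial dehydrogenase/reductase, was at 49.8 and 49.8 CPM with JQ1, against 3.92, 3.02 and 3.44 CPM without (3.85 ± 0.0985, adjusted p = 2.04e-27 by edgeR). PAG1, a membrane adaptor that recruits the kinase CSK, had 34.0 and 30.3 CPM with JQ1, against 2.22, 2.82 and 2.20 CPM without (3.73 ± 0.129), and EFR3B, which anchors a phosphatidylinositol kinase at the plasma membrane, had 32.5 and 36.7 CPM with JQ1, against 2.38, 2.92 and 2.53 CPM without (3.72 ± 0.129). Every treated library of these genes was far above every untreated one. TEX14, a protein of germ cell bridges, had 11.8 and 12.7 CPM with JQ1, against 0.847, 1.04 and 0.967 CPM without (3.67 ± 0.155). PEG10, an imprinted gene derived from a retrotransposon, was the most abundant of the 15 at 203 and 216 CPM with JQ1, against 36.2, 36.0 and 34.0 CPM without (2.56 ± 0.0589, adjusted p = 1.11e-28 by edgeR). MAP2, a microtubule protein known from neurons, had 50.4 and 52.3 CPM with JQ1, against 8.47, 7.41 and 7.31 CPM without (2.73 ± 0.0987). SERPINI1, which encodes neuroserpin and is a known marker of BET inhibition, had 14.8 and 13.2 CPM with JQ1, against 2.54, 1.98 and 2.63 CPM without (2.55 ± 0.148). These genes were well separated between the groups. The rises of FAM46C (2.86), a poly(A) polymerase, TMEM132B (2.78), C14orf37 (2.46) and IRF7 (2.39), a transcription factor of the interferon response, complete the 15 with 3 histone genes and EGR1. EGR1, an immediate early transcription factor, was uneven between the treated libraries, at 47.1 and 97.9 CPM with JQ1, against 7.94, 8.97 and 8.70 CPM without (3.09 ± 0.229, adjusted p = 5.25e-14 by edgeR). All 15 kept the call with ERCC factors.

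The largest falls were steeper, and most of the genes were nearly silent after JQ1. FGF1 (ENSG00000113578, chromosome 5, 142592178 to 142698070, minus strand), a fibroblast growth factor, was at 0.0548 and 0.163 CPM with JQ1, against 6.46, 6.68 and 7.04 CPM without (-5.86 ± 0.353, adjusted p = 1.69e-16 by edgeR). ADGRF1, an adhesion G protein-coupled receptor, had 0.219 and 0.108 CPM with JQ1, against 8.31, 7.30 and 7.74 CPM without (-5.52 ± 0.261), and DRD1, a dopamine receptor, had 0.164 and 0.108 CPM with JQ1, against 5.66, 4.85 and 4.51 CPM without (-5.13 ± 0.327). The treated libraries of these 3 genes held 1 to 4 counts each, so the size of the fall is imprecise. Their SE, derived from the test statistic, may understate this. TM4SF18 (ENSG00000163762, chromosome 3, 149318498 to 149334414, minus strand), a membrane protein with 4 predicted spans, fell from a far higher base, with 5.59 and 4.45 CPM with JQ1, against 219, 210.0 and 214 CPM without (-5.41 ± 0.0968, adjusted p = 3.26e-32 by edgeR). NAV3, a neuron navigator protein, had 5.37 and 5.96 CPM with JQ1, against 70.1, 68.5 and 67.2 CPM without (-3.60 ± 0.116), and DCLK1, a microtubule-binding kinase, had 1.59 and 1.68 CPM with JQ1, against 29.4, 28.6 and 27.1 CPM without (-4.11 ± 0.157). No treated library of these genes came near the untreated ones. Lower levels were also found for the hexokinase-like HKDC1 (-4.19), LONRF2 (-4.18), KRT7 (-4.02), NWD1 (-4.00), the kinase ALPK2 (-3.99), the actin-bundling plastin LCP1 (-3.71), the collagen COL16A1 (-3.66), ARHGDIB (-3.65) and the endothelin EDN1 (-3.54). All 15 kept the call with ERCC factors.

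Ranked by the change in CPM rather than by fold, abundant housekeeping and cytoskeletal genes came first. EEF2, the elongation factor of translation, had 4034 and 4182 CPM with JQ1, against 2782, 2887 and 2993 CPM without (0.51 ± 0.0537, adjusted p = 3.88e-10 by edgeR). GAPDH, a glycolytic enzyme, had 4583 and 4663 CPM with JQ1, against 3408, 3278 and 3530.2 CPM without (0.44 ± 0.0536), and HMGA1, a chromatin protein that binds AT-rich DNA, had 2249 and 2385 CPM with JQ1, against 1309.8, 1387 and 1449.6 CPM without (0.75 ± 0.0769). These groups did not overlap, but of the 5 largest rises in CPM only HMGA1 kept its call with ERCC factors (adjusted p = 0.018). ACTG1 and MT-CO2 were the other 2, and MT-CO2 turned to -0.02 with ERCC factors and lost its call by edgeR without DKO-C1+JQ1 replicate a (adjusted p = 0.188) or DKO-C1 replicate 1 (adjusted p = 0.088). The largest falls in CPM were those of ACTB (5293 and 5311 CPM with JQ1, against 6168, 6358 and 6544 CPM without; -0.26 ± 0.0658, adjusted p = 0.00101 by edgeR), SLC7A5, TUBB, CAV1 and ACTN1, and all 5 kept their calls with ERCC factors. CAV1, the coat protein of caveolae, was at 242 and 238 CPM with JQ1, against 645, 629.9 and 647 CPM without (-1.42 ± 0.0638), and ACTN1, an actin crosslinker, at 416 and 428 CPM with JQ1, against 772, 775 and 783 CPM without (-0.88 ± 0.0486). ACTB and ACTG1, the cytoplasmic actins, thus moved in opposite directions under TMM scaling. GAPDH, TUBB and MT-CO2 share 15.5% to 30% of their 50-base words with other transcripts, so pseudogene reads may be mixed into their counts.

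**Figure D3:**
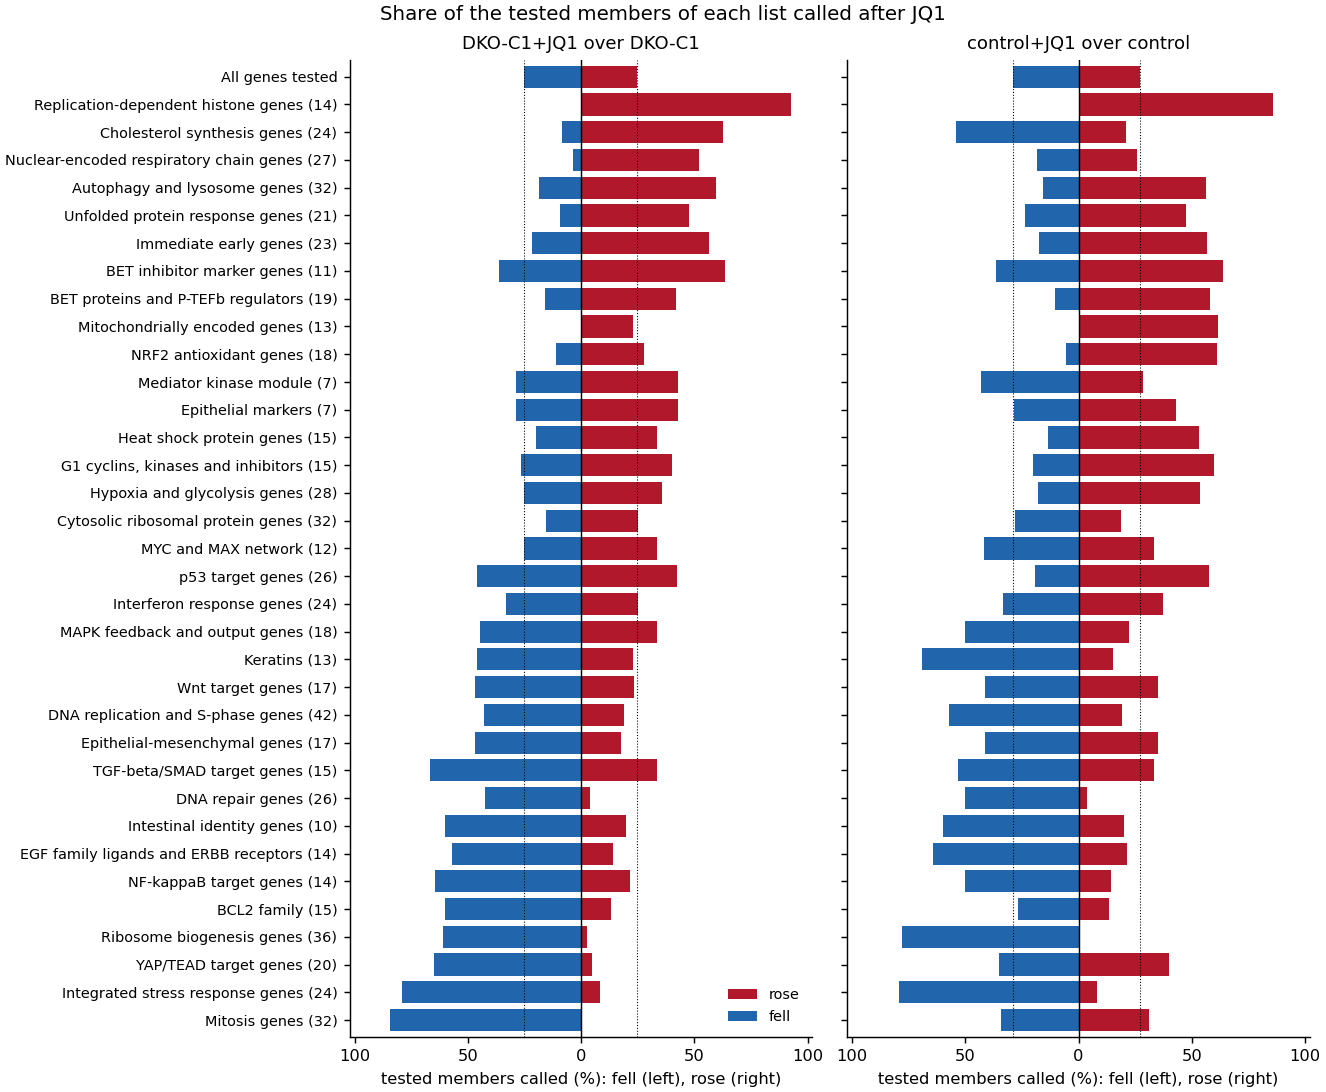
Share of the tested members of each gene list that fell (left, blue) or rose (right, red) after JQ1, in DKO-C1 (left panel) and in control cells (right panel); the number of tested members is in brackets and dotted lines mark the shares over all tested genes. In DKO-C1 histone genes lie at one end, with 13 of 14 up, and mitosis genes at the other, with 27 of 32 down.

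Genes of cell division fell together. Of 32 mitosis genes, 27 fell and none rose, with a median of -0.41, and with ERCC factors 28 fell. KIF20A, a kinesin of cytokinesis, was at 73.8 and 74.2 CPM with JQ1, against 139, 139 and 137 CPM without (-0.90 ± 0.0518, adjusted p = 4.66e-17 by edgeR). AURKA, a spindle kinase, had 79.5 and 76.0 CPM with JQ1, against 134, 138 and 145 CPM without (-0.84 ± 0.0529), and PLK1, a kinase that drives mitotic entry, had 176 and 176 CPM with JQ1, against 297, 310.1 and 328 CPM without (-0.82 ± 0.0625). TPX2, which activates AURKA on the spindle, had 346 and 342 CPM with JQ1, against 523, 507 and 517 CPM without (-0.59 ± 0.0459). The treated libraries lay below every untreated one in 28 of the 32 genes, beside 32.7% of all tested genes. DNA replication genes were less uniform, with 18 of 42 falling and 8 rising, while 5 rose without DKO-C1 replicate 1, and with ERCC factors 19 fell and none rose. E2F2, a transcription factor of S-phase genes, had 18.1 and 18.6 CPM with JQ1, against 34.1, 41.7 and 40.9 CPM without (-1.08 ± 0.0860), POLE2, a polymerase epsilon subunit, had 13.966 and 16.8 CPM with JQ1, against 30.0, 28.2 and 29.7 CPM without (-0.93 ± 0.0908), and MCM5 of the replicative helicase had 155 and 156 CPM with JQ1, against 229.9, 247 and 257 CPM without (-0.66 ± 0.0609). RRM2, a ribonucleotide reductase subunit, rose instead (509 and 483 CPM with JQ1, against 364, 336 and 352 CPM without; 0.50 ± 0.0534, adjusted p = 5.07e-10 by edgeR; adjusted p = 0.28 with ERCC factors), though 38.1% of its words are shared with other transcripts.

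The list of G1 cyclins, kinases and inhibitors was mixed. Among 15 tested genes 6 rose and 4 fell (4 and 5 with ERCC factors), beside 24.9% and 25.4% of all tested genes. CDKN1A, the p21 inhibitor, was at 269 and 267 CPM with JQ1, against 99.7, 101.69 and 109.9 CPM without, far above the untreated libraries (1.37 ± 0.0640, adjusted p = 1.2e-19 by edgeR). CDKN1C, the p57 inhibitor, had 15.8 and 17.7 CPM with JQ1, against 6.35, 6.99 and 7.25 CPM without (1.29 ± 0.106), and the INK4 genes CDKN2B (0.96) and CDKN2D (0.92) rose as well. Targets of p53 split, with 11 of 26 rising and 12 falling, or 3 and 12 with ERCC factors. TP53INP1, an autophagy and apoptosis protein, had 25.4 and 23.8 CPM with JQ1, against 9.79, 8.19 and 8.27 CPM without (1.49 ± 0.109), and XPC, which recognises DNA damage, rose (0.58). GDF15, a secreted stress cytokine, fell (17.3 and 17.6 CPM with JQ1, against 51.7, 48.3 and 51.9 CPM without; -1.54 ± 0.101, adjusted p = 1.9e-15 by edgeR). In the BCL2 family 2 of 15 rose and 9 fell (1 and 10 with ERCC factors), and without DKO-C1+JQ1 replicate a 5 fell. BCL2L11, the pro-apoptotic BIM, had 41.5 and 43.4 CPM with JQ1, against 18.4, 15.9 and 16.9 CPM without (1.32 ± 0.0678), while the anti-apoptotic BCL2 had 7.01 and 6.18 CPM with JQ1, against 15.2, 12.6 and 13.6 CPM without (-1.07 ± 0.105) and MCL1 rose (0.46; adjusted p = 0.397 with ERCC factors). Of 26 DNA repair genes 11 fell and PARP1 was the 1 that rose (0.36; adjusted p = 0.696 with ERCC factors). Among the falls were RAD51D (-1.05), BRIP1 (-0.77) and FANCD2 (-0.75), which act in the repair of crosslinks and broken forks.

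Ribosome production genes fell, and respiratory chain genes rose under TMM scaling but not with ERCC factors. Of 36 ribosome biogenesis genes 22 fell and 1 rose (24 fell and none rose with ERCC factors). GAR1, a subunit of pseudouridylation complexes, had 26.8 and 26.8 CPM with JQ1, against 47.9, 45.6 and 46.4 CPM without (-0.80 ± 0.0689, adjusted p = 2.83e-12 by edgeR), and DDX21, a nucleolar helicase, had 413 and 401 CPM with JQ1, against 654, 614 and 611 CPM without (-0.62 ± 0.0619). The assembly factors NIP7 (-0.66) and MRTO4 (-0.54) fell as well. Of 32 ribosomal protein genes 8 rose and 5 fell, shares near those of all genes for rises, and with ERCC factors none rose. The rises of RPS2 (0.46), RPS20 (0.49) and RPLP0 (0.31) and the fall of RPL22 (-0.50) are uncertain because 15.2% to 52.1% of their words occur in other transcripts. Of 27 nuclear genes of the respiratory chain 14 rose and 1 fell, but with ERCC factors none rose and 1 fell. SDHA of complex II (0.45) and ATP5A1 of the ATP synthase (678 and 681 CPM with JQ1, against 513, 486 and 518 CPM without; 0.43 ± 0.0449) were among the rises. The 13 mitochondrially encoded genes had 3 rises (MT-ND3, MT-CYB and MT-CO2) and none with ERCC factors, beside the mitochondrial shares of counts given above.

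Amino acid stress genes fell together. Of 24 integrated stress response genes, which ATF4 induces when amino acids are short or proteins misfold, 19 fell and 2 rose (ATF5 and ASNS), with a median of -0.74 (19 and none with ERCC factors). STC2, a secreted glycoprotein, had 37.4 and 34.7 CPM with JQ1, against 179, 169 and 176 CPM without (-2.28 ± 0.0712, adjusted p = 1.2e-24 by edgeR). SLC7A11, the cystine transporter, had 58.5 and 56.9 CPM with JQ1, against 281, 260.4 and 254 CPM without (-2.20 ± 0.0931, adjusted p = 6.46e-21 by edgeR), and TRIB3, a pseudokinase induced by ATF4, had 20.045 and 19.8 CPM with JQ1, against 68.3, 66.3 and 64.9 CPM without (-1.74 ± 0.0755). The transporters SLC7A1 (-0.84) and SLC7A5 (621 and 663 CPM with JQ1, against 1118, 1171 and 1163 CPM without; -0.84 ± 0.0697) fell with them. No treated library of these 5 genes overlapped an untreated one. Of 21 genes of the unfolded protein response 10 rose and 2 fell (none and 3 with ERCC factors). The rises included the sensor ERN1 (0.58) and the degradation factors SEL1L (0.51) and EDEM1 (0.63), while XBP1, the factor that ERN1 splices, fell (-0.79).

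Lysosomal and sterol genes rose more often than they fell under TMM scaling, a balance that was lost with ERCC factors for the lysosomal list and nearly lost for the sterol list. Of all tested genes 5.37% rose and 28.7% fell with ERCC factors, so both lists still had larger shares of rises and smaller shares of falls. Their medians with ERCC factors were -0.06 and 0.04, beside -0.27 for all tested genes. Of 32 autophagy and lysosome genes 19 rose and 6 fell, or 6 and 7 with ERCC factors, and without DKO-C1+JQ1 replicate 1 or DKO-C1 replicate 3 the falls numbered 2 and 3. NEU1, the lysosomal sialidase, had 61.2 and 59.7 CPM with JQ1, against 19.0, 16.3 and 17.6 CPM without (1.78 ± 0.0771, adjusted p = 1.31e-20 by edgeR), and ATG2A, a lipid transfer protein of the growing autophagosome, had 44.6 and 50.038 CPM with JQ1, against 16.1, 18.8 and 17.7 CPM without (1.43 ± 0.0864). MAP1LC3B, the LC3 marker of autophagosomes, had 204 and 192 CPM with JQ1, against 100.3, 96.8 and 101 CPM without (0.996 ± 0.0518), and GABARAPL1 rose too (0.89). Cholesterol synthesis counted 15 rises and 2 falls among 24 genes (4 and 3 with ERCC factors). TM7SF2, a sterol reductase, had 27.3 and 33.6 CPM with JQ1, against 8.26, 6.78 and 7.84 CPM without (2.00 ± 0.127), and IDI1, the isomerase of isopentenyl diphosphate, had 165 and 149.5 CPM with JQ1, against 82.1, 79.1 and 76.8 CPM without (0.99 ± 0.0578). MVD (0.87) and INSIG1 (0.72), a brake on the sterol sensor, rose as well.

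Stress and sugar metabolism lists were mixed. Among 28 hypoxia and glycolysis genes 10 rose and 7 fell (2 and 6 with ERCC factors), beside 24.9% and 25.4% of all tested genes. Isoforms differed. SLC2A3, the glucose transporter GLUT3, had 3.07 and 2.93 CPM with JQ1, against 26.044, 27.5 and 28.6 CPM without (-3.19 ± 0.116, adjusted p = 8.86e-23 by edgeR), although 18.8% of its words are shared with other transcripts. HK2 fell (17.9 and 18.4 CPM with JQ1, against 54.3, 52.983 and 52.2 CPM without; -1.55 ± 0.0877), while HK1 rose (149.7 and 149 CPM with JQ1, against 92.3, 99.4 and 101 CPM without; 0.62 ± 0.0566; adjusted p = 0.0951 with ERCC factors) and ENO2 rose under both scalings (0.89). Of 18 NRF2 antioxidant genes 5 rose and 2 fell (none and 2 with ERCC factors), with PGD (0.56) of the pentose phosphate pathway among the rises. Of 15 heat shock genes 5 rose and 3 fell (1 and 3 with ERCC factors). DNAJB1, a co-chaperone of HSP70, had 453 and 458 CPM with JQ1, against 277, 278 and 298 CPM without (0.68 ± 0.0472) and was the rise that stayed with ERCC factors (adjusted p = 0.0433).

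Most of the tested intestinal genes fell, and keratins were mixed. Of 10 tested intestinal genes 6 fell and 2 rose (6 and 1 with ERCC factors), while the other 10 of the list had too few counts. EHF, an epithelial ETS factor, had 1.97 and 2.06 CPM with JQ1, against 15.9, 15.4 and 14.4 CPM without (-2.91 ± 0.146, adjusted p = 1e-18 by edgeR), and HNF4G, a nuclear receptor of the gut, had 0.548 and 0.596 CPM with JQ1, against 4.23, 3.23 and 4.46 CPM without (-2.78 ± 0.271). ELF3 (-1.17) and KLF4 (-1.02), factors of epithelial differentiation, fell as well. Of 13 keratin genes 6 fell and 3 rose, and with ERCC factors 8 fell and none rose. KRT80 had 10.7 and 11.7 CPM with JQ1, against 95.8, 95.8 and 105 CPM without (-3.14 ± 0.132), KRT15 had 4.33 and 3.25 CPM with JQ1, against 19.1, 17.3 and 17.3 CPM without (-2.24 ± 0.138) and KRT7 had 0.438 and 0.379 CPM with JQ1, against 5.56, 7.41 and 7.25 CPM without (-4.02 ± 0.376). The abundant KRT8 and KRT18 rose by 0.21 and 0.22, but with ERCC factors both turned to -0.05, and they share about 23% of their words with other transcripts. EPCAM, the epithelial adhesion molecule, fell (297 and 266 CPM with JQ1, against 361, 335 and 346 CPM without; -0.30 ± 0.0604), as did the splicing factor ESRP1 (-0.53). Of 17 Wnt targets 4 rose and 8 fell (3 and 9 with ERCC factors). NOTUM, a secreted Wnt inhibitor, had 7.61 and 6.61 CPM with JQ1, against 19.2, 20.5 and 21.4 CPM without (-1.52 ± 0.125), and EPHB3, an ephrin receptor of crypts, had 20.8 and 22.3 CPM with JQ1, against 7.99, 8.45 and 8.49 CPM without (1.37 ± 0.0897).

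Mesenchymal and YAP-associated genes fell more often than they rose. Of 20 YAP/TEAD targets 13 fell and 1 rose (15 and none with ERCC factors), and of 17 epithelial-mesenchymal genes 8 fell and 3 rose (7 and none with ERCC factors). ANKRD1, a classical YAP target, had 2.14 and 2.06 CPM with JQ1, against 16.4, 15.5 and 14.9 CPM without (-2.89 ± 0.166, adjusted p = 4.4e-17 by edgeR). F3, tissue factor, had 42.7 and 39.2 CPM with JQ1, against 149.5, 138 and 153 CPM without (-1.84 ± 0.127), and the receptor kinase AXL had 111 and 114 CPM with JQ1, against 204, 218 and 216 CPM without (-0.92 ± 0.0747). All 3 sat below the untreated range. TAGLN, the actin-binding transgelin, had 17.3 and 18.0 CPM with JQ1, against 111, 101 and 107 CPM without (-2.59 ± 0.0711, adjusted p = 1.49e-26 by edgeR), though exons of PCSK7 overlap it on the opposite strand. FN1, fibronectin, had 25.6 and 28.7 CPM with JQ1, against 65.1, 65.6 and 60.6 CPM without (-1.23 ± 0.0774), VIM, vimentin, had 4.27 and 4.34 CPM with JQ1, against 16.3, 13.9 and 15.2 CPM without (-1.81 ± 0.129), and SPARC had 24.3 and 23.5 CPM with JQ1, against 53.7, 53.7 and 56.7 CPM without (-1.20 ± 0.0866). The treated libraries of these 4 genes lay well below the untreated ones. TGF-beta and SMAD targets were called without exception, 5 of 15 upward and 10 downward (2 and 10 with ERCC factors). The inhibitors of differentiation ID1 (459.8 and 459 CPM with JQ1, against 149, 160.0 and 165 CPM without; 1.54 ± 0.0676) and ID3 (176 and 189.7 CPM with JQ1, against 43.2, 49.0 and 47.6 CPM without; 1.97 ± 0.0793) rose, while LTBP2, a matrix protein of the latent TGF-beta binding protein family, fell (2.25 and 1.95 CPM with JQ1, against 15.2, 14.967 and 14.6 CPM without; -2.83 ± 0.133).

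Signalling outputs did not move as a block. Of 23 immediate early genes 13 rose and 5 fell (8 and 5 with ERCC factors). FOS had 9.04 and 13.1 CPM with JQ1, against 2.49, 2.5032 and 2.20 CPM without (2.20 ± 0.186), JUND had 195 and 225 CPM with JQ1, against 70.9, 76.9 and 80.8 CPM without (1.46 ± 0.0867) and ZFP36, which destabilises cytokine RNA, had 53.8 and 73.9 CPM with JQ1, against 25.6, 26.3 and 25.3 CPM without (1.31 ± 0.0945). As for EGR1, replicate a was the higher treated library in all 3 genes. Of 18 MAPK outputs 6 rose and 8 fell (none and 9 with ERCC factors), beside 24.9% and 25.4% of all tested genes. The ETS factor ETV4 fell (-0.86) and the receptor EPHA2 rose (0.52, adjusted p = 0.254 by edgeR with ERCC factors). Of 14 genes of the EGF family 2 rose and 8 fell (none and 8 with ERCC factors). NRG1, a ligand of ERBB3 and ERBB4, had 0.164 and 0.108 CPM with JQ1, against 2.65, 2.76 and 3.49 CPM without (-4.38 ± 0.367), and ERRFI1, a feedback inhibitor of EGFR, had 162 and 152 CPM with JQ1, against 351, 342 and 339.9 CPM without (-1.14 ± 0.0556). Of 14 NF-kappaB targets 9 fell and 3 rose (9 and none with ERCC factors), with ICAM1 at 2.08 and 3.31 CPM with JQ1, against 8.42, 7.30 and 8.06 CPM without (-1.55 ± 0.168). Of 24 interferon response genes 6 rose and 8 fell, beside 24.9% and 25.4% of all tested genes (3 and 9 with ERCC factors), with IRF7 (22.2 and 24.9 CPM with JQ1, against 4.02, 4.54 and 4.94 CPM without) and STAT2 (0.77) among the rises and OAS3 (64.5 and 68.4 CPM with JQ1, against 138, 146 and 142 CPM without; -1.10 ± 0.0527) and IFITM2 (-0.99) among the falls.

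The response in DKO-C1 was then compared with that of control cells, which shares no library with it. In control cells 9637 genes were called (56%), of which 4637 rose (27%) and 5000 fell (29.1%), and 532 rose (3.09%) and 1418 fell (8.25%) at least 2-fold. Of the genes that rose in DKO-C1, 3388 also rose in control cells, which is 79.2% of the DKO-C1 rises and 73.1% of the control rises. Of those that fell, 3415 also fell in control cells, which is 78.3% and 68.3%. Across 11689 genes with at least 5 CPM the log2 fold changes correlated with Pearson's r = 0.859, and across all 17198 tested genes with r = 0.739, as a description over genes that share libraries. Tested directly, 1478 responses differed (8.59%), and that of 670 genes (3.9%) was more positive in DKO-C1 and that of 808 (4.7%) more negative. Of these, 38 rose in DKO-C1 and fell in control cells, and 108 fell in DKO-C1 and rose in control cells. The count of differences was sensitive to single libraries and to scaling, with 921 called without DKO-C1+JQ1 replicate 1 and 142 with ERCC factors (83 more positive, 0.483%, and 59 more negative, 0.343%). The median difference over all tested genes was 0.026 with TMM scaling and 0.124 with ERCC factors, so a lost call need not be a lost estimate. Spike-in shares varied within groups of the fit, as from 2.22% to 3.38% of gene counts in CDK8KO-C2. Whether that widened the spread was not tested. Fitted on the libraries compared alone, 457 were more positive and 1241 more negative.

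**Figure D4:**
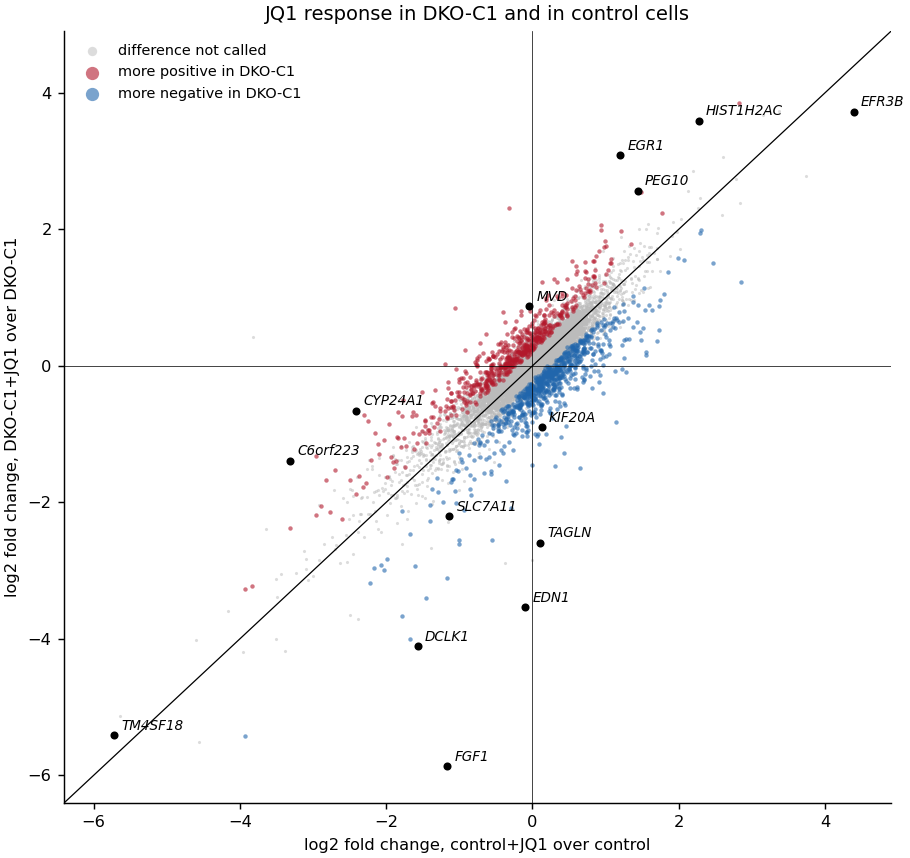
Log2 fold change after JQ1 in DKO-C1 (vertical) against control cells (horizontal) for 11033 genes with at least 5 CPM in DKO-C1 with or without JQ1; the diagonal marks equal responses. Red points (597) were called more positive and blue points (761) more negative in DKO-C1, grey points were not called, and labelled genes are in black. TAGLN and EDN1 fell in DKO-C1 with control values near 0.

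Responses of BET marker genes differed from those in control cells in both directions. Of 11 tested BET inhibitor markers, 3 responses were called more positive in DKO-C1 and 2 more negative, beside 3.9% and 4.7% of all genes. With ERCC factors 3 and none were called. The 3 were those of HIST1H2AC, HIST1H2BK and SERPINI1. The 2 were those of SLC7A5 (-0.46 ± 0.0914, adjusted p = 0.000514 by edgeR), an amino acid transporter that fell in both backgrounds, and ZCCHC24 (-0.72 ± 0.0979, adjusted p = 1.41e-06 by edgeR), which rose in both and was named after its values were seen. HIST1H2AC rose by 3.59 in DKO-C1 and by 2.27 in control cells, a difference of 1.32 ± 0.218 (adjusted p = 4.11e-05 by edgeR). In control cells it was at 16.8, 15.7 and 16.9 CPM with JQ1, against 4.14, 2.85 and 3.21 CPM without, so the treated levels were similar and the untreated level was lower in DKO-C1. SERPINI1 (1.07 ± 0.211, adjusted p = 0.000569 by edgeR), DHRS2 (1.02 ± 0.145, adjusted p = 3.57e-06 by edgeR) and PEG10 (1.124 ± 0.0803, adjusted p = 7.5e-13 by edgeR) also rose more in DKO-C1. All 4 differences were called with ERCC factors too. For HEXIM1 the difference was -0.05 ± 0.0712 (adjusted p = 0.788 by edgeR) and for BRD2 0.17 ± 0.0633 (adjusted p = 0.0982 by edgeR), neither past the threshold. CDKN1A rose more in DKO-C1 (1.37 against 0.73; difference 0.64 ± 0.0870, adjusted p = 1.47e-06 by edgeR; adjusted p = 0.0948 with ERCC factors), and so did BCL2L11 (0.47 ± 0.0888, adjusted p = 0.000324 by edgeR; adjusted p = 0.409 with ERCC factors).

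Mitosis genes responded differently in the 2 backgrounds. None of the 32 rose and 27 fell in DKO-C1, against 10 and 11 in control cells, and the response of 22 was called more negative in DKO-C1 (background 4.7%). Without single libraries this count ran from 16 to 24, and with ERCC factors it was 1. The median difference over the 32 genes was -0.37 with TMM scaling and -0.26 with ERCC factors. KIF20A was the gene called under both scalings. It was at 73.8 and 74.2 CPM with JQ1, against 139, 139 and 137 CPM without in DKO-C1, and at 154, 154 and 154 CPM with JQ1, against 141, 140.4 and 142 CPM without in control cells (difference -1.03 ± 0.0676, adjusted p = 1.21e-13 by edgeR; adjusted p = 0.0135 with ERCC factors). AURKA had a difference of -0.62 ± 0.0704 and PLK1 of -0.49 ± 0.0821, with adjusted p-values of 3.54e-08 and 4.65e-05 by edgeR. With ERCC factors these differences were -0.52 and -0.39, with adjusted p-values of 0.511 and 0.744 by edgeR. Of 42 DNA replication genes 8 rose and 18 fell in DKO-C1, against 8 and 24 in control cells, and 1 difference was called, or none to 3 without single libraries.

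Cholesterol synthesis genes showed the opposite contrast. Of 24 genes 15 rose and 2 fell in DKO-C1, against 5 and 13 in control cells, and 18 were called more positive in DKO-C1 (background 3.9%), 13 to 18 without single libraries and 7 with ERCC factors. MVD, which decarboxylates mevalonate diphosphate, was at 117 and 131 CPM with JQ1, against 63.0, 66.9 and 73.7 CPM without in DKO-C1, and at 75.6, 68.8 and 67.8 CPM with JQ1, against 70.9, 75.3 and 73.1 CPM without in control cells (difference 0.92 ± 0.0919, adjusted p = 2.39e-09 by edgeR). IDI1 was at 107, 114 and 116 CPM with JQ1 in control cells, against 101, 98.1 and 97.5 CPM without (difference 0.80 ± 0.0785, adjusted p = 1.55e-09 by edgeR).

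**Figure D5:**
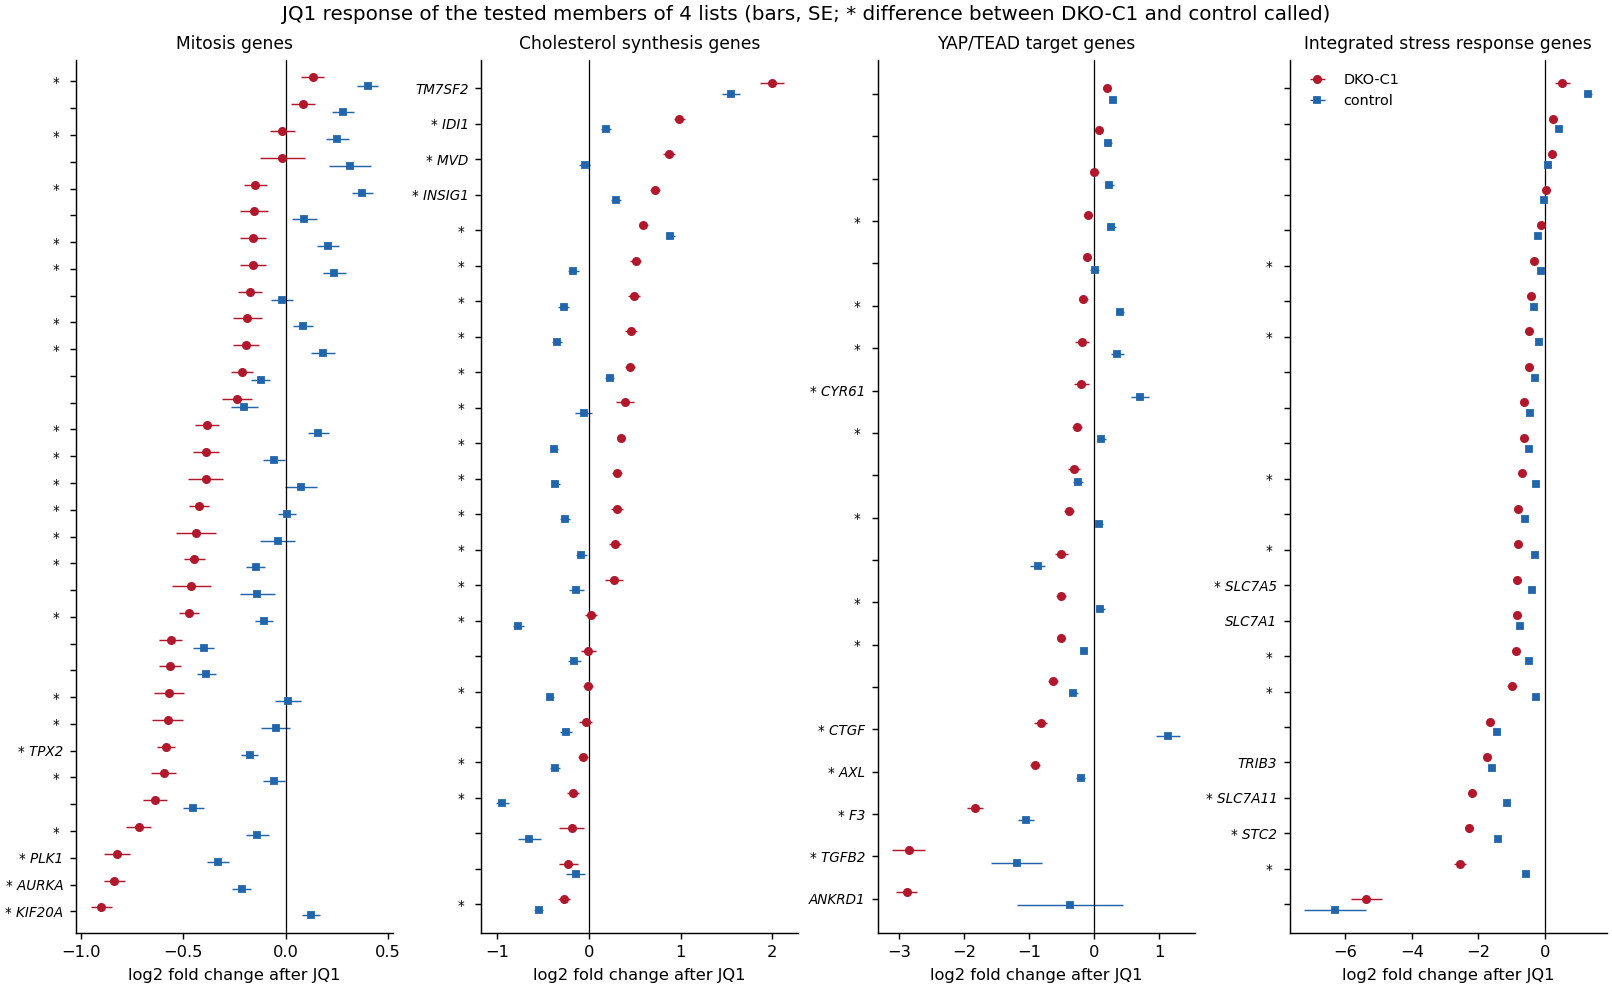
Log2 fold change after JQ1, with SE, of each tested gene of 4 lists in DKO-C1 (red circles) and in control cells (blue squares); an asterisk marks genes whose responses were called different, and some genes named in the text are labelled. Mitosis, YAP/TEAD and stress response genes lie mostly lower in DKO-C1, and cholesterol synthesis genes mostly higher.

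YAP/TEAD targets, stress genes and antioxidant genes also differed. Of 20 YAP/TEAD targets 1 rose and 13 fell in DKO-C1, against 8 and 7 in control cells. The response of 12 was called more negative in DKO-C1 (background 4.7%), or of 1 with ERCC factors. Among the fits without a single library, this count was lowest without DKO-C1+JQ1 replicate 1. CTGF and CYR61, textbook YAP targets chosen here after their values were seen, were at -0.83 and -0.20 in DKO-C1 and rose in control cells (1.14 and 0.70), with adjusted p-values of 1.2e-08 and 0.000655 by edgeR for the difference. CTGF was at 102.47 and 108 CPM with JQ1, against 194, 180.1 and 185 CPM without in DKO-C1, and at 9.5040, 8.26 and 11.4 CPM with JQ1, against 1.84, 6.80 and 4.71 CPM without in control cells. Of 24 integrated stress response genes 19 fell in DKO-C1 and 19 in control cells. The response of 10 was called more negative in DKO-C1 (background 4.7%), or of 2 with ERCC factors. SLC7A11 (-1.06 ± 0.119, adjusted p = 2.55e-08 by edgeR) and CHAC1 (-1.999 ± 0.206, adjusted p = 5.1e-09 by edgeR), a glutathione-degrading enzyme named after its values were seen, were the 2 called under both scalings. STC2, a secreted glycoprotein, was among the other 8 (-0.87 ± 0.0905, adjusted p = 5.14e-09 by edgeR; adjusted p = 0.088 with ERCC factors). Of 18 NRF2 genes 5 rose in DKO-C1 and 11 in control cells. The response of 7 was called more negative and of 1 more positive in DKO-C1 (background 4.7% and 3.9%), or of 2 and none with ERCC factors. For histone genes 3 of 14 differences were called, each more positive in DKO-C1 (background 3.9%), and 2 with ERCC factors.

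Among the characterised genes with at least 5 CPM in 1 of the 4 groups, the 5 most negative differences belonged to FGF1, EDN1, TAGLN, DCLK1 and NWD1, whose means were higher in untreated DKO-C1 than in untreated control cells. All 5 stayed below 5 CPM in control cells and so entered this ranking through DKO-C1 alone. A low level in control cells leaves little room for a fall there, so these differences depend in part on the untreated levels. TAGLN was at 3.49, 3.70 and 3.12 CPM with JQ1, against 3.09, 3.18 and 3.32 CPM without in control cells, with no call (adjusted p = 0.576 by edgeR), and DKO-C1+JQ1 was above all of these libraries (difference -2.69 ± 0.158, adjusted p = 5.14e-15 by edgeR). EDN1 had 0.687, 0.512 and 0.455 CPM with JQ1, against 0.315, 0.822 and 0.642 CPM without in control cells (difference -3.44 ± 0.485, adjusted p = 2.77e-06 by edgeR), and DCLK1 had 0.973, 0.854 and 0.909 CPM with JQ1, against 1.73, 3.73 and 2.73 CPM without (-2.54 ± 0.344, adjusted p = 1.38e-06 by edgeR). In control cells FGF1 had 0.0573, 0.171 and 0 CPM with JQ1, against 0.105, 0.219 and 0.214 CPM without. Its difference (-4.70 ± 1.2501, adjusted p = 0.0121 by edgeR) was lost without control+JQ1 replicate 2 (adjusted p = 0.404). NWD1 had 7.30, 8.08 and 7.09 CPM in untreated DKO-C1 and 0.997, 0.658 and 0.749 CPM in untreated control cells. Its difference (-2.32 ± 0.621, adjusted p = 0.0127 by edgeR) was lost with ERCC factors and without DKO-C1+JQ1 replicate a (adjusted p = 0.0573) or control+JQ1 replicate 3 (adjusted p = 0.112). ACTN1 fell in DKO-C1 and was at 277, 270.4 and 274 CPM with JQ1, against 284, 291 and 292 CPM without in control cells (difference -0.80 ± 0.0646, adjusted p = 1.64e-11 by edgeR; adjusted p = 0.133 with ERCC factors).

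Positive differences came from deeper falls in control cells in some genes and from larger rises in DKO-C1 in others. CYP24A1, the hydroxylase that inactivates vitamin D, had 196 and 202 CPM with JQ1, against 321, 309 and 315 CPM without in DKO-C1, and 30.1, 27.6 and 28.6 CPM with JQ1, against 136, 167 and 157 CPM without in control cells (difference 1.75 ± 0.0828, adjusted p = 1.28e-17 by edgeR). C6orf223 had 4.22 and 3.96 CPM with JQ1, against 11.2, 11.003 and 9.94 CPM without in DKO-C1, and 0.458, 0.455 and 0.795 CPM with JQ1, against 5.87, 4.93 and 6.37 CPM without in control cells (1.93 ± 0.266, adjusted p = 1.94e-06 by edgeR). EREG, the EGFR ligand epiregulin, had 133 and 121 CPM with JQ1, against 215, 197 and 197 CPM without in DKO-C1, and 251, 281 and 303 CPM with JQ1, against 933, 1090.4 and 953 CPM without in control cells (1.16 ± 0.105, adjusted p = 2.05e-10 by edgeR). In these 3 genes the level fell in both backgrounds, and more so in control cells. EGR1 rose in both, from a lower base in DKO-C1 (control cells 66.6, 89.4 and 75.2 CPM with JQ1, against 26.1, 40.6 and 34.3 CPM without; 1.89 ± 0.296, adjusted p = 1.8e-05 by edgeR). NRP1, a semaphorin co-receptor, fell in both backgrounds (log2 fold changes of -2.45 in DKO-C1 and -4.18 in control cells), and the difference (1.73 ± 0.392, adjusted p = 0.00262 by edgeR) was lost without DKO-C1+JQ1 replicate 1 (adjusted p = 0.167).

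The subline DKO-C2 gave a view of how far untreated double knockout libraries vary. Of the 533 genes that rose at least 2-fold, 507 (95.1%) had both treated libraries above all 6 untreated double knockout libraries. Of the 1281 that fell at least 2-fold, 1175 (91.7%) had both below. These genes were selected by their change from DKO-C1, so that part of the comparison was largely fixed in advance. All 533 rises and 1264 of the 1281 falls already lay beyond the DKO-C1 libraries. Only the DKO-C2 libraries were new here, and the share over all tested genes is not given. HEXIM1 was at 90.1, 95.9 and 92.3 CPM in DKO-C2 and HIST1H2AC at 1.92, 1.91 and 2.09 CPM, near untreated DKO-C1. TAGLN stood at 149, 161 and 144 CPM and TM4SF18 at 262, 246 and 249 CPM in DKO-C2. DKO-C2 was not given JQ1, so whether its response matches that of DKO-C1 was not tested.

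Genes below 5 CPM supplied most of the falls of at least 2-fold (874 of 1281). Among genes with a mean of 0.5 to 1 CPM over all libraries 15.7% fell at least 2-fold, against 7.12% between 5 and 20 CPM and 0.814% above 100 CPM. Of 658 long intergenic noncoding RNAs 111 fell at least 2-fold (16.9%), and of 13198 protein-coding genes 969 did (7.34%). Rises of at least 2-fold were also more frequent in the noncoding RNAs (6.23% against 2.87%), and these classes were not matched for level. By chromosome the share that fell at least 2-fold ran from 3.9% on X to 11.1% on chromosome 12, leaving out the 36 mitochondrial genes, none of which did. The share that rose at least 2-fold was highest on chromosome 6 (5.38%), which holds the main histone cluster. The median gene span was 25.5 kb for protein-coding genes that rose at least 2-fold, 30.5 kb for those that fell and 32.9 kb for all. Among those with a mean of at least 5 CPM over all libraries the medians were 29.3, 31.6 and 34.3 kb. The quartiles of these sets overlapped, from 9.71 to 90.3 kb for the rises and from 14.5 to 79.4 kb for all.

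Some genes had no count after JQ1. With at least 10 counts in each untreated library, 8 genes were at 0 in both treated libraries, and none was at 0 in all untreated libraries with as many counts in the treated ones. NLRP11, a protein of the NLR family, had 29, 21 and 19 counts in DKO-C1 and was at least 7.52-fold lower with JQ1, taking 3 counts per library as the floor. HTR1B, a serotonin receptor, had 18, 19 and 29 counts (at least 7.21-fold lower), MILR1 21, 20 and 16 (at least 6.21-fold) and DMRT1, a factor of testis development, 14, 12 and 21 (at least 5.14-fold). PLEKHS1, HRG, Z82186.1 and AC022028.2 completed the set. The floors cover counting error alone, and these genes were chosen after their values were seen.

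Markers of the labelled cell type were present throughout. The 7 epithelial markers summed to 7189 to 7316 CPM in DKO-C1+JQ1 and 6236 to 6790 CPM in DKO-C1, with 3 rising and 2 falling (none and 2 with ERCC factors). The 7 immune markers were too low for a test and summed to 0.164 to 0.434 CPM with JQ1 and 0.106 to 0.417 CPM without, with CD3E and MS4A1 at 0 in all 5 libraries. The 5 endothelial markers summed to 0.434 to 0.712 CPM with JQ1 and 0.626 to 0.806 CPM without, and CDH5 was at 0. The 9 fibroblast markers summed to 100.1 to 103.9 CPM with JQ1 and 135.3 to 148.2 CPM without, mostly from FBLN1 (78.7 and 79.3 CPM with JQ1, against 111, 119 and 116 CPM without; -0.54 ± 0.0720), while LUM and PDGFRA were at 0. In bulk RNA, fewer cells of a type and less RNA per cell cannot be told apart.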

How the data were processed

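RNA was sequenced from HCT116 cells and knockout sublines as paired reads of 100 bases, per the labels. The authors deposited a table of raw counts for 58039 genes and 92 ERCC spike-ins. STAR 2.5.2, featureCounts and Subread 1.6.3 with hg38 are named per the submitters' processing notes. Strand setting, library preparation and annotation release: not given in the sources used here.

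Of 26 library columns, 4 could be matched to a group only, among them 1 of DKO-C1+JQ1 and the 3 of DKO-C2. ERCC spike-ins stayed out of library sizes. The 17198 genes kept by filterByExpr (minimum count 10, minimum total 15) were tested with edgeR 4.0.16 (R 4.3.3), by a quasi-likelihood test with TMM factors on all 26 libraries in 9 groups. All p-values are two-sided and were adjusted by Benjamini-Hochberg over all tested genes, with a threshold of 0.05. Values after ± are SE, computed as the absolute log2 fold change over the square root of the quasi-likelihood F statistic. Where counts are few they may understate the error. The difference between responses is the interaction contrast. CPM are counts per 1000000 of the TMM-scaled library size. Sharing between transcripts was computed as the share of 50-base words of a gene that occur in other genes. limma 3.58.1 (voom), DESeq2 1.42.0, ERCC factors, other filters, a replicate block and leaving out each library were the alternatives. No pair of libraries within the 4 groups compared agreed within sampling noise. The procedure was tested on simulated counts.

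Genes named are CDK8, CDK19, MYC, HEXIM1 and the tested members of 3 lists (BET and P-TEFb, Mediator kinase module, MYC network), the 15 largest rises and falls and the 5 largest changes in CPM each way among called genes with at least 5 CPM and no overlap, the 4 called members with the lowest p of each other list, and the 5 most positive and negative differences. The members and lists were chosen with earlier results of these data known. Results for some of these genes are not reported here.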

Additional observations from a re-analysis of the deposited data

Results flagged for a closer look

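For 67 of the genes that the naming rule selected the response to JQ1 differed between DKO-C1 and control cells by the interaction test in edgeR (adjusted p under 0.05 over all genes), which is why they are listed. Values are the log2 fold change in DKO-C1 minus that in control cells. Of the 67 differences, 36 were negative and 31 positive. With ERCC factors 7 of the negative and 15 of the positive ones were called, and 45 of the 67 were called whichever single library was left out.

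The negative differences of more than 0.5 were FGF1 -4.70, EDN1 -3.44, TAGLN -2.69, DCLK1 -2.54, NRG1 -2.52, NWD1 -2.32, COL16A1 -1.89, TGFB2 -1.66, SLC7A11 -1.06, KIF20A -1.03, GDF15 -0.97, SLC2A3 -0.97, VIM -0.96, FN1 -0.96, STC2 -0.87, LTBP2 -0.84, EHF -0.84, ACTN1 -0.80, F3 -0.78, AXL -0.70, AURKA -0.62, SMAD6 -0.62, ACTB -0.54 and HK2 -0.54. The smaller ones were PLK1 -0.49, EPHB3 -0.48, SLC7A5 -0.46, BRIP1 -0.43, TPX2 -0.41, HSP90AA1 -0.36, HSPH1 -0.36, MEPCE -0.34, XBP1 -0.33, EPHB2 -0.31, PRDX1 -0.29 and ELL2 -0.29. COL16A1, TGFB2 and NRG1 lost the call without some single libraries, with adjusted p-values up to 0.0844 for COL16A1, 0.332 for TGFB2 and 0.0809 for NRG1.

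The positive differences of more than 0.5 were MNT 0.53, CDKN1C 0.57, MYC 0.58, CDKN1A 0.64, MED12L 0.68, ID1 0.70, TNFAIP2 0.73, ID3 0.77, IDI1 0.80, MVD 0.92, DHRS2 1.02, HIST1H2BK 1.06, SERPINI1 1.06, PEG10 1.124, EREG 1.16, HIST1H2AC 1.32, NRP1 1.73, CYP24A1 1.75, EGR1 1.89 and C6orf223 1.93. The smaller ones were PGD 0.30, SOD2 0.30, NDUFB5 0.31, PHLDA1 0.34, MXI1 0.34, GABARAPL1 0.43, INSIG1 0.43, NEU1 0.44, ERRFI1 0.45, IER3 0.46 and BCL2L11 0.47. CDKN1C lost the call without any of 6 libraries (adjusted p up to 0.14), and MNT without DKO-C1+JQ1 replicate a (adjusted p = 0.276).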

How the results depend on the processing

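Without single libraries the genes called in DKO-C1 numbered 7189 to 8142 (8642 with all), those changed at least 2-fold 1693 to 1796 (1814), those called in control cells 8900 to 9073 (9637) and the differences 921 to 1446 (1478), the lowest without DKO-C1+JQ1 replicate 1. ERCC factors gave 5864 calls in DKO-C1, 5716 without DKO-C1+JQ1 replicate 1 (418 rose and 5298 fell) and 3031 without replicate a (871 and 2160), which were chosen after seeing the data, and 142 differences. In control cells they gave 801 rises and 7666 falls. At least 5 CPM left 746 genes changed at least 2-fold. The cause of these changes was not tested, other than that the filter leaves fewer genes.

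Of 192 named genes, ERCC factors left 151 on the same side of the threshold and ended the call of 36. The estimate of 5 turned slightly negative, which describes the sign and not a call in the other direction (log2 fold changes of -0.0337 for CDK8, -0.0834 for MED13, -0.0155 for MT-CO2, -0.0536 for KRT8 and -0.0510 for KRT18). With ERCC factors and without DKO-C1+JQ1 replicate 1, 15 changed sign: CDK9 (-0.0394), AFF4 (-0.0145), CDK8 (-0.234), CCNC (-0.141), MED13 (-0.253), MT-CO2 (-0.109), ACTG1 (-0.138), RPLP0 (-0.130), UQCRC2 (-0.154), NDUFB5 (-0.109), HSP90AA1 (-0.144), PRDX1 (-0.0972), PARP1 (-0.0574), KRT8 (-0.197) and KRT18 (-0.186).

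With the replicate number as a block, 8076 genes were called in DKO-C1 (1784 changed at least 2-fold), 9579 in control cells and 1203 differences. The numbers are not stated to pair the libraries: deviations of same-numbered DKO-C1 libraries correlated at 0.0540 and 0.0280 over 2 pairs.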

Other observations

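SUPT4H1, the smaller subunit of the DSIF elongation factor, was near absent from DKO-C1 with and without JQ1, at 0.657 and 0.488 CPM in DKO-C1+JQ1 and 0.794, 0.209 and 0.430 CPM in DKO-C1. In control cells it was at 119, 96.3 and 113 CPM with JQ1 and 86.8, 83.3 and 82.8 CPM without, and in DKO-C2 at 0.640, 0.381 and 1.04 CPM. It shares 77.2% of its 50-base words with transcripts of other genes, so its counts are uncertain.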
